A study of Physcomitrium patens with 6 samples.

Results

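Genes that had reads in wild type protonema and none in *Ppddm1* numbered 103 of the 31967 annotated genes of *P. patens*. A gene was taken where its counts were 0 in all 3 *Ppddm1* libraries, at least 1 in at least 2 of the 3 wild type libraries, and at least 3 summed over wild type. These counts chose the genes, so their values in the 6 libraries are given below as a description, and no test on them counts as a result. The 103 genes were 0.516% of the 19958 genes that met the wild type part of the rule.

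The libraries were made from polyA RNA of the moss strain Grandsen. The tissue was protonema, the filaments of young plants, aged 7 days and grown on BCDAT medium at 25 °C with 16 h light and 8 h dark. The 3 wild type libraries are labelled wt with no further allele. The 3 *Ppddm1* libraries come from a knockout in which a Zeocin resistance cassette replaced the coding region of PpDDM1 by homologous recombination. The paper describes a single knockout plant found after antibiotic selection, so other differences between that plant and wild type cannot be told apart from the loss of PpDDM1. Replicates 1 and 2 of each genotype are batch 1 in the sample labels and replicate 3 is batch 2. The labels do not say whether replicates came from separate cultures, and p-values then cover only the variation among these libraries, which may be technical.

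DDM1 is a chromatin remodeler of the Snf2 family that lets DNA methyltransferases reach DNA wrapped in nucleosomes. In flowering plants it is best known for keeping transposons methylated and silent, so a gene that loses its reads in a *ddm1* mutant changes in the direction opposite to the release of a silenced sequence. A count of 0 in RNA-seq is not the same as no transcript, since a gene with few reads can be missed by chance in any library. The functions of the 103 genes are not given, because none of the gene identifiers was found in the reference table and the count table holds identifiers alone. For that reason only the 2 members with the highest mean wild type level are printed by identifier, the others are described by chromosome, and the tissue was not checked against marker genes.

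Summed depth was larger in the genotype without reads. The wild type libraries held 2784259, 4272928 and 6079718 counts and the *Ppddm1* libraries 3767473, 4105086 and 10536543 counts, so that *Ppddm1* had 1.4 times the summed counts of wild type. Levels below are CPM, in which the counts of a gene are scaled to the total of its library. They are not per length of the gene, so they compare libraries and do not rank genes by transcript abundance. In *Ppddm1*, 0 counts over the 3 libraries allow up to 0.163 CPM (3 counts of 18409102, for counting error only), against 0.228 CPM for 0 counts over wild type. PpDDM1 itself had 42, 78 and 161 counts in wild type replicates 1 to 3 and 4, 4 and 11 counts in *Ppddm1*. The direction is that of the labels, but reads remained in every *Ppddm1* library, at 1.06, 0.974 and 1.04 CPM. This is above 0.307 CPM, the median over members of the mean wild type level. The source of these reads was not tested.

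The members were read very few times in wild type. Together they held 521 counts over the 3 wild type libraries, or 0.00397% of all wild type counts. Their summed level was 34.8 CPM in replicate 1, 37.4 CPM in replicate 2 and 43.4 CPM in replicate 3, with a mean of 38.6 ± 4.4 CPM (SD, n = 3). The library of batch 2 was the highest, at 1.2 times the mean of the batch 1 libraries, 36.1 CPM. A member had a median of 4 counts over wild type, with 3 as the lowest and 25 as the highest sum. There were 40 members with 3 counts, 23 with 4, 15 with 5, 10 with 6, 10 with 7 to 9 and 5 with 10 to 25. The 5 with the most reads held 17.9% of the members' counts.

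Reads of a member were mostly spread thinly over the libraries. Of the 103 genes, 31 had reads in all 3 wild type libraries and 72 in exactly 2 of them. The pair was replicates 2 and 3, the deeper wild type libraries, for 41 genes, replicates 1 and 3 for 21 and replicates 1 and 2 for 10. Accordingly 41 members had no read in replicate 1, 21 had none in replicate 2 and 10 had none in replicate 3. In 101 members no library held more than 9 counts. The highest CPM lay in replicate 1 for 36 members, in replicate 2 for 25 and in replicate 3 for 42. In counts, replicate 3 held 264 of the members' 521. The rule gave 28 genes without replicate 3, 64 without wild type replicate 1 and 44 without wild type replicate 2. In these counts a gene needed reads in both wild type libraries that remained, a stricter rule than 2 of 3. The drops therefore do not measure the weight of a library alone.

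**Figure D1:**
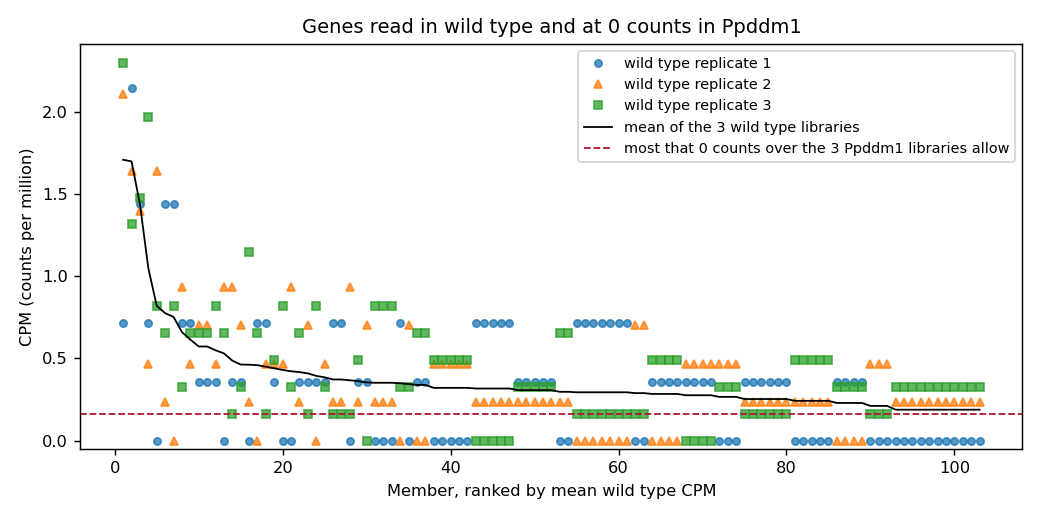
CPM of each of the 103 members in the 3 wild type libraries (points) and their mean (line), with members ordered by that mean. The dashed line is the 0.163 CPM that 0 counts over the *Ppddm1* libraries allow. The mean falls from 1.71 CPM to 0.188 CPM, and the rows of equal values are genes with 0, 1 or 2 reads in a library.

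The member with the highest mean level, Pp3c10_4480 on chromosome 10, had 2, 9 and 14 counts in wild type replicates 1 to 3. These are 0.718, 2.11 and 2.3 CPM, a mean of 1.71 ± 0.864 CPM (SD, n = 3). Replicate 1 was well below the others, while all 3 *Ppddm1* libraries were at 0. Over the pooled counts, 1.9 CPM (exact Poisson 95% interval 1.23 to 2.81 CPM) was 11.7 times a floor of 0.163 CPM. The floor is taken as 3 counts over the *Ppddm1* libraries. This ratio leaves out the counting error of wild type, so it is not a lower bound of the fold.

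Pp3c9_2950 on chromosome 9 had the most even reads of the 2 genes printed, with 6, 7 and 8 counts in wild type. Its levels were 2.15, 1.64 and 1.32 CPM, a mean of 1.7 ± 0.423 CPM (SD, n = 3), and its pooled level was 9.81 times the same floor. A member on chromosome 2 was steadier still, with 4, 6 and 9 counts that scale to 1.44, 1.4 and 1.48 CPM. It stood at 8.88 times the floor. By contrast, a member on chromosome 3 with 2, 2 and 12 counts drew most of its reads from replicate 3, where it reached 1.97 CPM against 0.718 and 0.468 CPM in the other libraries. Its pooled level was 7.47 times the floor. A member on chromosome 23 was not read in replicate 1 and had 7 and 5 counts in replicates 2 and 3, which gives 5.61 times the floor.

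Below these 5 genes the ratios to the floor were small. The members ranked 6 and 7, on chromosomes 8 and 16, had 9 counts each and stood at 4.2 times the floor. The member on chromosome 8 had 4, 1 and 4 counts and that on chromosome 16 had 4, 0 and 5. Further members with 8 counts lay on chromosomes 2, 3, 4, 9, 12, 14 and 18, each at 3.74 times the floor. The 40 members with 3 counts held no more than the 3 counts of the floor and get no ratio. Over the 63 others the ratio ran from 1.87 to 11.7 with a median of 2.34, and it was 4 or more for 7 genes. For 25 of the 103 members the exact Poisson interval of the pooled wild type level lay above 0.163 CPM. The interval covers counting error only, and these counts chose the members, so nothing is read from this number.

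Of the 103 members, 98 had fewer than 10 counts over the 6 libraries and were not fitted. In edgeR's quasi-likelihood fit of all 20647 genes and TEs with at least 10 counts, the 5 with the most reads entered the fit and 4 were called lower in *Ppddm1*. A call needed a Benjamini-Hochberg adjusted p under 0.05 together with a change of at least 2-fold. Of the 19626 genes tested, 2.46% were called lower. A member could pass this filter only through wild type reads and the rule fixed its direction, so nothing is read from these calls. None of the 4 calls was kept without *Ppddm1* replicate 3, the deepest library, 3 were kept without *Ppddm1* replicate 2, and 2 when wild type replicate 3 was left out.

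Genes just outside the rule were more numerous than those inside it. Of the 40 members with 3 counts, 6 had 1 count in each wild type library and 34 had their reads in 2 libraries. Another 51 genes had 1 count in each of 2 wild type libraries and 0 in *Ppddm1*, and 52 had 3 to 6 counts in a single wild type library and 0 in *Ppddm1*. On the other side, 118 genes met the wild type part of the rule and had 1 count over *Ppddm1*, and 165 had 2. Of the 118 genes, 9 had at least 10 wild type counts and the highest had 27, above any member. In all, 703 genes had a read in wild type and none in *Ppddm1*, 409 of them a single read.

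The share of genes at 0 in *Ppddm1* fell steeply with the number of wild type reads. Among genes that met the wild type part of the rule, 40 of 305 with 3 counts were at 0 in *Ppddm1* (13.1%, Clopper-Pearson 95% interval 9.54% to 17.4%). The share was 8.36% of 275 genes with 4 counts, 5.84% of 257 with 5, 2.75% of 727 with 6 to 9 and 0.299% of 1002 with 10 to 19. Of 1595 genes with 20 to 49 counts, 2 were at 0. Of 15797 genes with 50 or more none was, and the same interval had an upper limit of 0.0233%. These intervals treat genes as separate trials in the same libraries and do not cover variation between libraries. Genes with 3 wild type counts had a median of 4 counts over *Ppddm1*, where equal CPM would give 4.2, and genes with 10 to 19 had a median of 17, where equal CPM would give 19.6 for the median gene.

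The same rule with the genotypes exchanged gave 273 genes, read in *Ppddm1* and at 0 in wild type, 2.65 times as many. They were 1.34% of the 20396 genes read in *Ppddm1*. Genes with 3 *Ppddm1* counts were at 0 in wild type in 28.6% of 301 cases, and those with 20 to 49 counts in 0.617% of 1459. The members also stopped at fewer reads, with 25 counts as the highest sum against 160 counts under the exchanged rule. Depth moves with this contrast, as given above. In batch 1 alone, where the summed counts of *Ppddm1* were 1.12 times those of wild type, the rule gave 113 genes read in wild type and silent in *Ppddm1* and 150 in the other direction. The order of the 2 counts turned when either of 2 *Ppddm1* libraries was left out. Without *Ppddm1* replicate 3, the deepest, 303 genes were read in wild type and silent in *Ppddm1* and 74 the reverse. Without *Ppddm1* replicate 2 there were 154 and 129. The 2 directions were not treated alike in these counts. Reads were needed in both *Ppddm1* libraries that remained under the exchanged rule, but in only 2 of 3 wild type libraries under the first. Without its replicate 3, *Ppddm1* also had the smaller depth, 7872559 counts against 13136905. Among the 241351 TEs, 68 were read in wild type and at 0 in *Ppddm1*, and 341 the reverse.

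**Figure D2:**
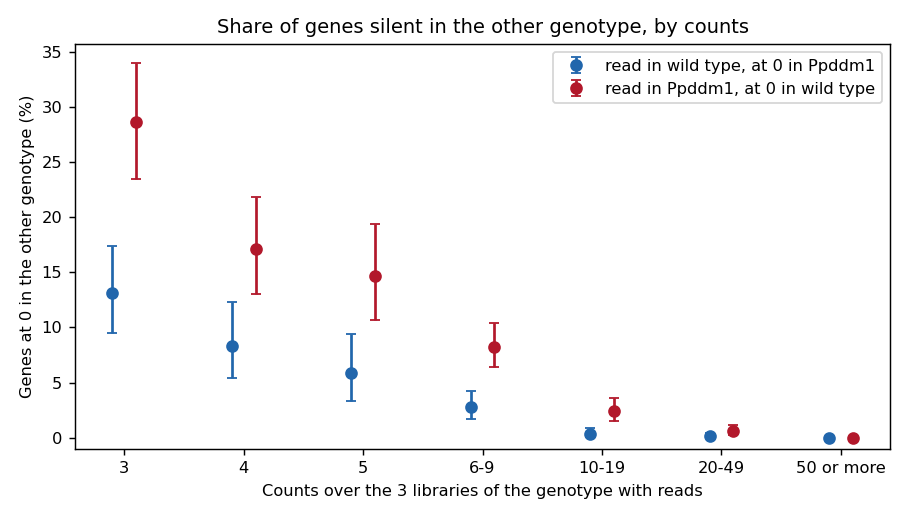
Percent of genes at 0 counts over the 3 libraries of one genotype, by their counts over the 3 libraries of the other. Bars are Clopper-Pearson 95% intervals over genes, which do not cover variation between libraries. For genes read in wild type (blue) the share falls from 13.1% at 3 counts to 0.299% at 10 to 19, and for genes read in *Ppddm1* (red) it falls from 28.6%.

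Whether genes chosen in this way stay lower was asked of libraries that took no part in the choice. Replicates 1 and 2 alone, with reads in both wild type libraries, 3 counts or more and none in *Ppddm1*, gave 113 genes. In replicate 3, which is batch 2, these genes had 325 counts in wild type and 248 in the deeper *Ppddm1* library. Summed over the genes, this is 53.5 CPM for wild type (exact Poisson 95% interval 47.8 to 59.6) and 23.5 CPM for *Ppddm1* (20.7 to 26.7), or 2.27 times higher in wild type. There is 1 library of each genotype in batch 2, so this difference has no replicate check and the intervals cover counting error only.

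How many of the chosen genes were silent in the *Ppddm1* library left aside differed between the replicates. Reads were found in *Ppddm1* replicate 3, the deepest library, for 85 of the 113 genes, and 28 (24.8%) were at 0 there. The level was higher in wild type for 62 genes, higher in *Ppddm1* for 41 and 0 in both for 10. With replicate 1 left aside, 81 genes were chosen, and they summed to 18.3 CPM for wild type against 7.17 CPM for *Ppddm1*, where 64 genes (79%) were at 0. With replicate 2 left aside there were 62 genes, with 24.1 CPM against 9.74 CPM, and 44 of them (71%) were at 0 in *Ppddm1*. The 3 choices overlap, so they are not independent of each other. Wild type was the higher genotype in each, by 2.56, 2.47 and 2.27 times for replicates 1, 2 and 3.

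The exchanged choice gave ratios of like size in the opposite direction. The 150 genes chosen in batch 1 as read in *Ppddm1* and silent in wild type had 81.3 CPM in *Ppddm1* replicate 3 (76 to 87) and 37.8 CPM in wild type replicate 3 (33.1 to 43), 2.15 times higher in *Ppddm1*. A lower level in the genotype where a gene had been silent was thus seen in both directions. The difference between these ratios was not tested.

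Of the 113 genes chosen in batch 1, 11 had at least 8 counts there, and 10 of these 11 had a higher CPM in wild type in replicate 3. Since the *Ppddm1* library was deeper, these 10 include genes with equal counts in both libraries. A gene on chromosome 3 had 6 counts in each and a gene on chromosome 10 had 2 in each. Of the 11, 3 are members and so had 0 counts in *Ppddm1* replicate 3 by the rule. In wild type replicate 3 they were Pp3c10_4480 with 14 counts, Pp3c9_2950 with 8 and the member on chromosome 2 with 9. A gene on chromosome 26 that led the choice with 16 batch 1 counts had 5 counts in wild type replicate 3 and 3 in *Ppddm1* replicate 3, and so is not a member. A gene on chromosome 24 with 13 batch 1 counts had 9 counts in wild type replicate 3 against 1 in *Ppddm1*. A gene on chromosome 5 went from 18 counts in wild type to 3 in the *Ppddm1* library, the widest gap in counts among the 8 of these genes that were read in *Ppddm1* replicate 3. The exchanged choice held 23 genes with at least 8 batch 1 counts. Of these, 20 had a higher CPM in *Ppddm1* replicate 3, and 12 were at 0 in wild type replicate 3.

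**Figure D3:**
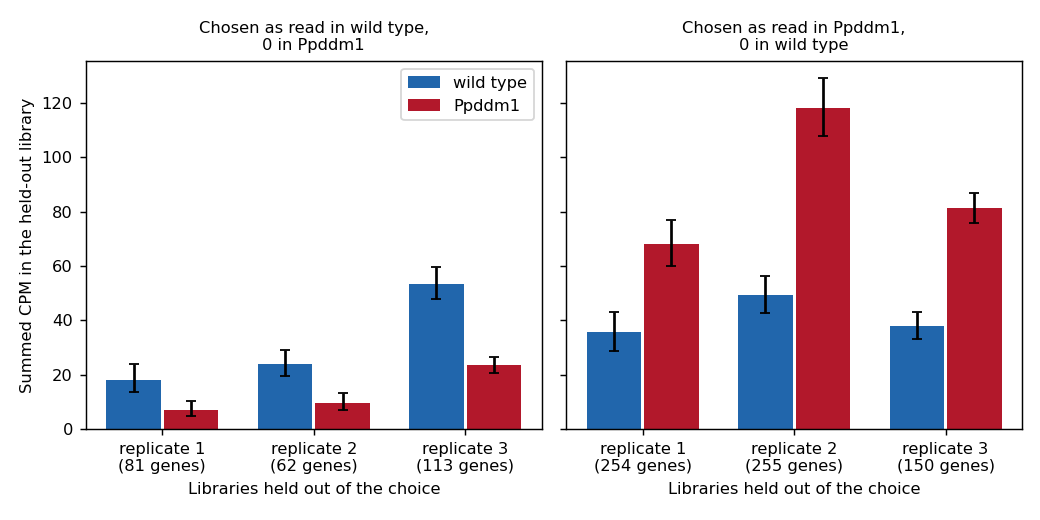
Summed CPM in the wild type (blue) and *Ppddm1* (red) libraries of the replicate left out of the choice, for genes chosen on the other 2 replicates, with exact Poisson 95% intervals that cover counting error only. Wild type is higher in the 3 pairs on the left, by 2.27 to 2.56 times, and *Ppddm1* in the 3 pairs on the right.

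The members were scattered over the genome. Of the 27 chromosomes 24 held a member, with 9 on chromosome 3, 7 on chromosome 2 and 6 each on chromosomes 9, 10 and 15, and chromosomes 24, 25 and 27 held none. These 3 chromosomes had 598, 414 and 279 genes that met the wild type part of the rule, and the median over chromosomes was 4 members. No 2 members were adjacent in the order of identifiers, and the closest pair on a chromosome lay 4 genes apart. Chromosome 17, which carries PpDDM1, held 2 members with 3 wild type counts each, and 684 annotated genes lay between PpDDM1 and the nearer of them.

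**Figure D4:**
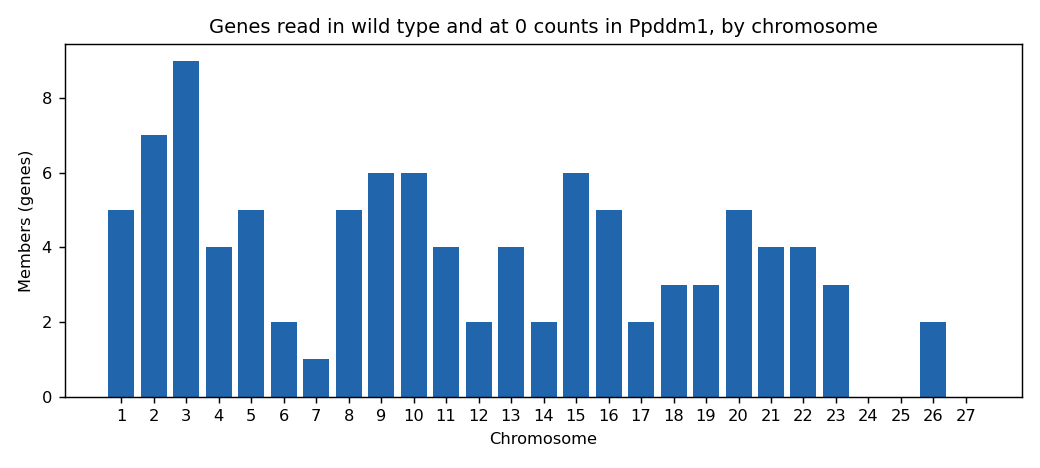
Number of members on each of the 27 chromosomes, from the chromosome number in the identifier. Chromosome 3 has 9 members, and chromosomes 24, 25 and 27 have none.

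Unplaced scaffolds held 4 members, with 6, 5, 5 and 3 wild type counts. Of 13 scaffold genes whose wild type counts met the rule and lay in the members' range of 3 to 25, these were 30.8%, against 3.33% of 2971 such genes on chromosomes. The number of scaffold genes is small, and the comparison is a description. Reads with several matches were assigned to 1 place at random, which leaves the counts of near-identical genes uncertain, and this was not tested for the members. Identifiers that do not end in 0 made up 13.6% of the members (14 genes), 22.7% of the 273 genes under the exchanged rule and 16.3% of the 2881 other genes in the same wild type count range. The share was 9.56% of all annotated genes and 3.98% of all genes read in wild type. The members thus shared this form of identifier with other genes of low counts.

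The genes beside the members had fold changes spread much like those of all genes, with a few strongly lowered ones among them. The nearest annotated gene on each side that is not itself a member was taken in the order of identifiers, which gave 200 genes, and 119 of them passed the filter of the edgeR fit (59.5%, against 61.4% of all genes). Their values were not used by the rule. The median log2 fold change was -0.03, with quartiles of -0.24 and 0.19, against a median of 0.01 and quartiles of -0.22 and 0.2 over all 19626 genes tested. With library totals in place of TMM factors the median of the flanking genes was 0.01 and that of all genes 0.05. Of the 119 genes, 28 (23.5%) had genotypes that did not overlap, near the 23.2% of all genes tested. In 17 (14.3%) all *Ppddm1* libraries were the lower, against 10.9% of all genes tested.

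There were 6 flanking genes called lower in *Ppddm1*, 5.04% of the 119 against 2.46% of all genes tested and 2.79% of 2902 tested genes beside the other genes of the members' count range, and 1 was called higher, against 0.545% of all genes tested. The 6 genes lay beside 4 members, on chromosomes 9, 13, 16 and 19. Taking the 5 nearest genes on each side gave 571 tested genes, of which 19 (3.33%) were called lower, closer to the share of all genes. These are small counts, and no test of the difference in shares was made.

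The next gene after Pp3c9_2950 on chromosome 9 was called lower in *Ppddm1*. Its wild type levels were 2.51, 7.02 and 3.45 CPM, its *Ppddm1* levels were 0.531, 0 and 0.285 CPM, and the genotypes did not overlap. The edgeR fit gave a log2 change of -3.94 with a standard error of 0.64 and an adjusted p of 0.00174. The libraries of batch 1 by themselves gave -4.19 with an adjusted p of 0.0812 in edgeR, which is no call. Both genes of this pair were thus near or at 0 in every *Ppddm1* library.

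On chromosome 13, a member with 2, 0 and 4 wild type counts had a called gene on either side. The gene before it had a wild type level of 106 ± 12 CPM and a *Ppddm1* level of 14.5 ± 10.3 CPM (mean ± SD, n = 3 each), with an edgeR log2 change of -2.76 ± 0.4 (standard error) and an adjusted p of 0.00586. Its call was lost when every feature with a count was fitted (adjusted p = 0.0777 from edgeR). Here *Ppddm1* replicate 3 was the least lowered, with 25.9 CPM against 5.84 and 11.7 CPM. The gene after it changed less, with 11.7 ± 0.485 CPM against 5.4 ± 1.7 CPM (mean ± SD, n = 3 each), an edgeR log2 change of -1.1 ± 0.24 (standard error) and an adjusted p of 0.0169. Its call was lost without wild type replicate 2 or 3 (adjusted p from edgeR 0.0753 and 0.0907), without *Ppddm1* replicate 3 (0.0686) and without *Ppddm1* replicate 1, where the change was under 2-fold, and in batch 1 alone (0.244). The strand setting of the counting is not given in the sources used here, so the few reads of the member cannot be told apart from those of a neighbour where the genes overlap.

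The member on chromosome 16 with 1, 0 and 4 wild type counts also lay between called genes. For the gene before it, the wild type libraries had 7.54, 4.21 and 5.43 CPM and those of *Ppddm1* 0.265, 0.487 and 1.33 CPM, an edgeR log2 change of -2.62 ± 0.45 (standard error) with an adjusted p of 0.00379. For the gene after it, wild type had 48.5, 69.5 and 61 CPM and *Ppddm1* had 7.17, 6.82 and 24.7 CPM, an edgeR log2 change of -2.08 ± 0.44 (standard error) with an adjusted p of 0.0357. Again *Ppddm1* replicate 3 was the highest of its genotype. The call of this second gene was lost without wild type replicate 2 (adjusted p = 0.0518 from edgeR), without *Ppddm1* replicate 1 (0.0615) and when every feature with a count was fitted (0.199).

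Beside the member on chromosome 19, with 0, 4 and 2 wild type counts, the next gene had wild type levels of 105, 73.3 and 82.6 CPM and *Ppddm1* levels of 22.3, 16.3 and 16 CPM. The edgeR log2 change was -2.3 ± 0.18 (standard error) with an adjusted p of 2.88e-05, and the gene was called in every alternative fit. The flanking gene called higher lay on chromosome 21 beside a member with 5 wild type counts. Its wild type levels were 6.82, 7.96 and 6.09 CPM and its *Ppddm1* levels 17, 11.2 and 15.4 CPM, for which edgeR gave a log2 change of 1.05 and an adjusted p of 0.0169. Its call was lost in batch 1 alone (adjusted p from edgeR 0.425), with wild type replicate 3 left out (0.117) or with *Ppddm1* replicate 3 left out (0.118). With *Ppddm1* replicate 1 left out, its change was under 2-fold.

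**Figure D5:**
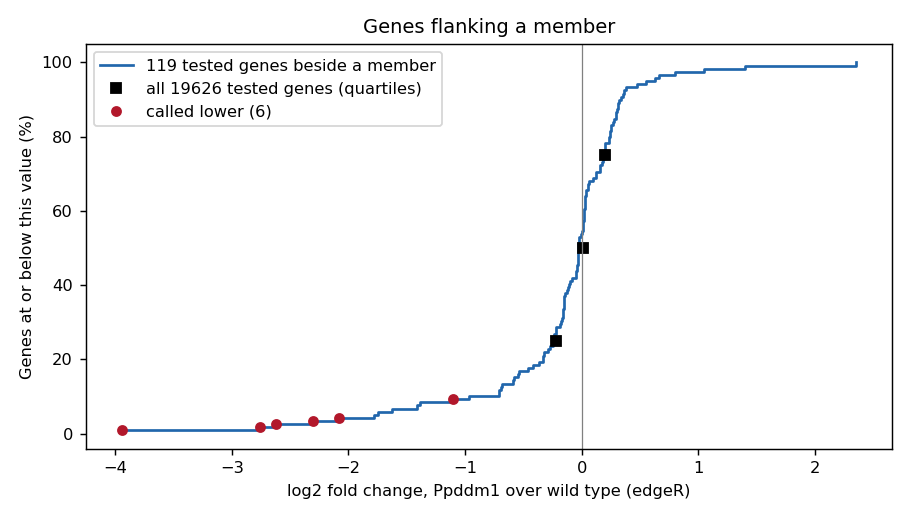
Cumulative percent of the 119 tested flanking genes by log2 fold change (blue line), with the 6 called lower in red and the quartiles of all 19626 tested genes as black squares. The line passes close to the squares, and the called genes lie between -3.94 and -1.1.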

How the data were processed

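PolyA RNA of 3 wild type and 3 *Ppddm1* libraries was sequenced as single-end reads. According to the methods and the submitters' processing notes, the authors trimmed reads with Trim Galore 0.6.0 and cutadapt 1.15, aligned them with STAR 2.7.0f to genome v3.3 and assigned reads with several matches at random. They deposited raw counts per gene and TE, without normalization, and the counting program is not given in the sources used here.

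CPM are counts over library totals. Genes and TEs with at least 10 counts were fitted together in edgeR 4.0.16 (R 4.3.3) with TMM, glmQLFit (robust, legacy off) and genotype as the only term. The script was tested on simulated data. Limma 3.58.1 (voom) and DESeq2 1.42.0 served as alternatives. Genes were ordered by the numbers in their identifiers, and none of the identifiers matched the reference table. The text prints PpDDM1 and the 2 members with the highest mean wild type CPM. The members and lists were chosen with earlier results of these data known. Libraries of a genotype differed by more than sampling noise (chi-square per degree of freedom 1.88 to 8.05). Pairs with replicate 1 differed most, at 6.25 and 6.82 in wild type and 8.05 and 7.5 in *Ppddm1*. Replicates 2 and 3 gave 1.88 and 3.75. Figures were drawn with matplotlib 3.10.9.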

Additional observations from a re-analysis of the deposited data

How the results depend on the processing

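The number of members depends on the rule and on depth. It was 103, and 40 with at least 5 wild type counts, 5 with at least 10, 31 with reads in all 3 wild type libraries and 221 with 1 *Ppddm1* count allowed. Leaving out 1 library gave 28 (without wild type replicate 3) to 303 genes (without *Ppddm1* replicate 3). Here and under the exchanged rule the minimum of 2 libraries with reads was kept, so it became stricter where the genotype with reads lost a library. The exchanged rule gave 273 genes, 136 with at least 5 counts, 34 with at least 10 and 95 with reads in all 3 *Ppddm1* libraries, and 74 (without *Ppddm1* replicate 3) to 489 (without wild type replicate 2) when 1 library was left out. For this rule, 2 alternatives added after seeing the data gave 552 genes with 1 wild type count allowed and 150 in batch 1 alone.

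Of the members, 4 were called lower, but 0 in batch 1 alone and 0 with filterByExpr, which tested none of these 4, and 0 to 5 with 1 library left out. All genes called lower numbered 483, 229 in batch 1 alone and 342 to 520 with 1 library left out. The flanking genes called lower numbered 4 to 6 without 1 library. Their median log2 fold change was -0.03, 0.01 with library totals, 0.02 with 5 genes on each side and -0.06 to -0.01 without 1 library. For the replicate left aside, wild type had 53.5 CPM and *Ppddm1* 23.5 CPM, 33.1 and 12.3 CPM with at least 5 counts, 18.3 and 7.17 CPM for replicate 1, and 24.1 and 9.74 CPM for replicate 2. The cause of these changes was not tested.

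Same-numbered libraries did not deviate together for replicate 3 (Pearson r across features 0.226, 0.172 and -0.0136 for replicates 1, 2 and 3), so the numbers were not taken as pairs. With the replicate block 5 members, 7 flanking genes and 520 genes in all were called lower, and the median of the flanking genes was -0.03.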
